A study of Mus musculus with 9 samples.

Results

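Small leucine-rich proteoglycans are secreted matrix proteins, and 9 genes of this family were followed in mouse knee joints: Dcn, Bgn, Fmod, Lum, Prelp, Omd, Ogn, Aspn and Kera. They were taken by name, through their Ensembl IDs, from the 53379 gene IDs that were counted. The rule that names them uses no measured value, but the members were chosen with earlier results of these data known. Expression was measured by RNA sequencing of whole knee joints in 9 libraries, 3 for each of 3 groups. PC2 libraries came from joints of male C57BL/6 mice whose anterior cruciate ligament was cut at 8 weeks of age, an operation that destabilises the joint and is used to model osteoarthritis, and that received a lentivirus expressing PC2 in the joint cavity 1 week later. Luc libraries came from joints with the same operation and the same timing that received a lentivirus expressing Luc. Both kinds of joint were collected 8 weeks after the virus. Non surgery libraries came from joints without the operation. How old the Non surgery mice were, how many mice made up a group and which promoter drives the viral inserts is unknown here. Within a group the RNA was pooled, and the 3 libraries are technical repeats of that 1 pool. The p-values below therefore measure only the spread between repeats of a pool and hold no difference between mice. Because a joint sample mixes tissues, fewer cells of a type and less RNA per cell cannot be told apart in any of these values.

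The family shares a core of leucine-rich repeats that binds collagen, and most members carry chains of chondroitin, dermatan or keratan sulfate. By protein structure Dcn, Bgn and Aspn form one class, Fmod, Lum, Prelp, Omd and Kera another, and Ogn belongs to a separate one. In cartilage, tendon, bone and skin these proteins sit on collagen fibrils, set their diameter and spacing, and hold growth factors such as TGF-beta. Fragments of them accumulate when joint cartilage breaks down, and soluble biglycan and decorin are known ligands of Toll-like receptors.

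Of the 9 genes, 8 lie in 3 runs of neighbouring family genes in GRCm38. Prelp (chr1:133910304-133921414, minus strand) and Fmod (chr1:134037254-134048277, plus strand) lie on chromosome 1. Dcn (chr10:97479609-97518143), Lum (chr10:97565128-97572703) and Kera (chr10:97606879-97613692) lie in this order on the plus strand of chromosome 10. Aspn (chr13:49544443-49567565), Omd (chr13:49582462-49592822) and Ogn (chr13:49608046-49624501) lie on the plus strand of chromosome 13. Bgn (chrX:73483602-73495933, plus strand) is on the X chromosome.  Exons of 7 of the 9 genes overlap no other annotated gene. In Prelp, 9.68% of exon bases are shared with Gm15851 on the other strand, and in Aspn 0.297% with Cenpp. Whether reads were counted by strand is unknown here. How reads in the shared bases of Prelp were counted, or whether they were left out as ambiguous, is therefore unknown too.

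The 250 bases before the RefSeq start are printed for a pair of genes that rose in PC2 against Luc libraries (Fmod and Prelp) and a pair that fell (Omd and Aspn), because these pairs are the opposite ends of the PC2 comparison. The sequences are RefSeq promoters of GRCm38.p6, written 5′ to 3′ on the gene's own strand, and capitals mark any match, on either strand, to the TATA box TATAAA, the AP-1 motif TGANTCA, the GC box GGGCGG, the SMAD motif CAGACA or the E-box CACGTG. RefSeq and GENCODE place the start differently for Prelp, Kera, Bgn and Ogn: the Prelp window reaches a few bases into the gene as its coordinates are given above, and that of Kera, not printed, lies inside it. In the 4 windows printed only the letters TATAAA occur, at 2 places in Aspn that do not overlap, 207 and 178 bases before the start.
Fmod (chr1:134037004-134037253, plus strand): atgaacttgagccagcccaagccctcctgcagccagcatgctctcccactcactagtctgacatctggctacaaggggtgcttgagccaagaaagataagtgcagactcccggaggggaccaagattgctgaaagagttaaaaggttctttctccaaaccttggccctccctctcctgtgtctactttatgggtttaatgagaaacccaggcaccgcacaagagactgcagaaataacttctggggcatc
Prelp (chr1:133921402-133921651, minus strand): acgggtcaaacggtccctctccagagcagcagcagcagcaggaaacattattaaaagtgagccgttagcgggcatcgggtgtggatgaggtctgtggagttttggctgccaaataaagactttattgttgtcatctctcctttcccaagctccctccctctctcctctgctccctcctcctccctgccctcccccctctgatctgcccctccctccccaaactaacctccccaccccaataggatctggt
Omd (chr13:49582212-49582461, plus strand): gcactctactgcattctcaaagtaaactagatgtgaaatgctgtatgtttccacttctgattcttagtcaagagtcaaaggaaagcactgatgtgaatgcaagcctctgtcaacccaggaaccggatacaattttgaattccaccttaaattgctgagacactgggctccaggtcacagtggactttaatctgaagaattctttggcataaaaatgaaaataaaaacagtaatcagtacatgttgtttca
Aspn (chr13:49544193-49544442, plus strand): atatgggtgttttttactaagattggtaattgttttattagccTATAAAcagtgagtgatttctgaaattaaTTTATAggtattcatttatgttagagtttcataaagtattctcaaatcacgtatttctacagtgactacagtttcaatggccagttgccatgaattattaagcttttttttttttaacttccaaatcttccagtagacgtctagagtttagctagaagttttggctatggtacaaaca
The windows of the pair that was higher hold 51.2% (Fmod) and 55.6% (Prelp) G and C, and those of the pair that was lower 38.4% (Omd) and 30% (Aspn). Windows of the members that did not pass in PC2 against Luc libraries hold 64.4% (Bgn), 42% (Ogn) and 42.4% (Kera). The printed genes were picked by their change, and a link of G and C to direction was not tested. A promoter sequence was at hand for 7 of the 9 genes, all but Dcn and Lum. Of these 7, Aspn and Ogn hold TATAAA, which 12.4% of all 32851 RefSeq windows of this length hold. In Ogn the matches lie 229 and 227 bases before the start. Bgn holds GGGCGG, found in 32.7% of all windows. The AP-1, SMAD and E-box motifs match in 0 of the 7 and in 6.75%, 17.1% and 6.02% of all windows. The matches are letters in a window and were not tied to any measured binding.

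Libraries held 17835989 to 19004316 counts in genes, and all 9 family genes passed the filter on low counts with 17478 genes in all. Values are CPM, the gene's counts per 1000000 counts of a library total scaled by TMM, a method that assumes most genes are alike between libraries, and a gene is said to rise or fall where its adjusted p in edgeR's quasi-likelihood test was under 0.05. Marker genes of cartilage, bone, muscle, fat and fibrous tissue were all counted. That does not show that the groups were sampled with the same mix of tissues. The 12 skeletal muscle markers summed to 32120.0 to 32256 CPM in PC2 libraries, 27685 to 28130.0 in Luc libraries and 69821 to 71979 in Non surgery libraries. The 7 chondrocyte markers summed to 4998 to 5032 CPM in PC2 libraries, 2942 to 3014 in Luc libraries and 432 to 464 in Non surgery libraries.

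Operated joints of both virus groups were compared with joints without the operation. All 9 family genes were higher in the operated joints, each at least 2-fold, in both comparisons. Together they took 0.859% ± 0.0235 of all gene counts in PC2 libraries and 0.835% ± 0.00341 in Luc libraries, against 0.206% ± 0.00830 in Non surgery libraries (SD, n = 3 each). In PC2 against Non surgery libraries, 9 of 9 rose, with a median log2 fold change of 1.90 beside 0.010 over all genes. Set against Non surgery libraries, the Luc libraries had 9 of 9 higher, with a median log2 fold change of 1.94 beside 0.025 over all genes. Of all genes tested, 31.5% rose in the PC2 comparison and 31.1% in the Luc comparison, and 9.83% and 9.43% did so at least 2-fold. None of the 9 fell in either comparison, while 31.2% of all genes fell in the PC2 comparison and 27.7% in the Luc comparison, 6.53% and 6.32% of all genes by at least 2-fold. For each of the 9 genes, every operated library lay above every Non surgery library, which was so for 33.5% of genes tested in the PC2 comparison and 33.1% in the Luc comparison, with 32.5% and 29.8% lying below. The 2 comparisons share the 3 Non surgery libraries, and the groups differ by operation, virus and pool together.

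**Figure D1:**
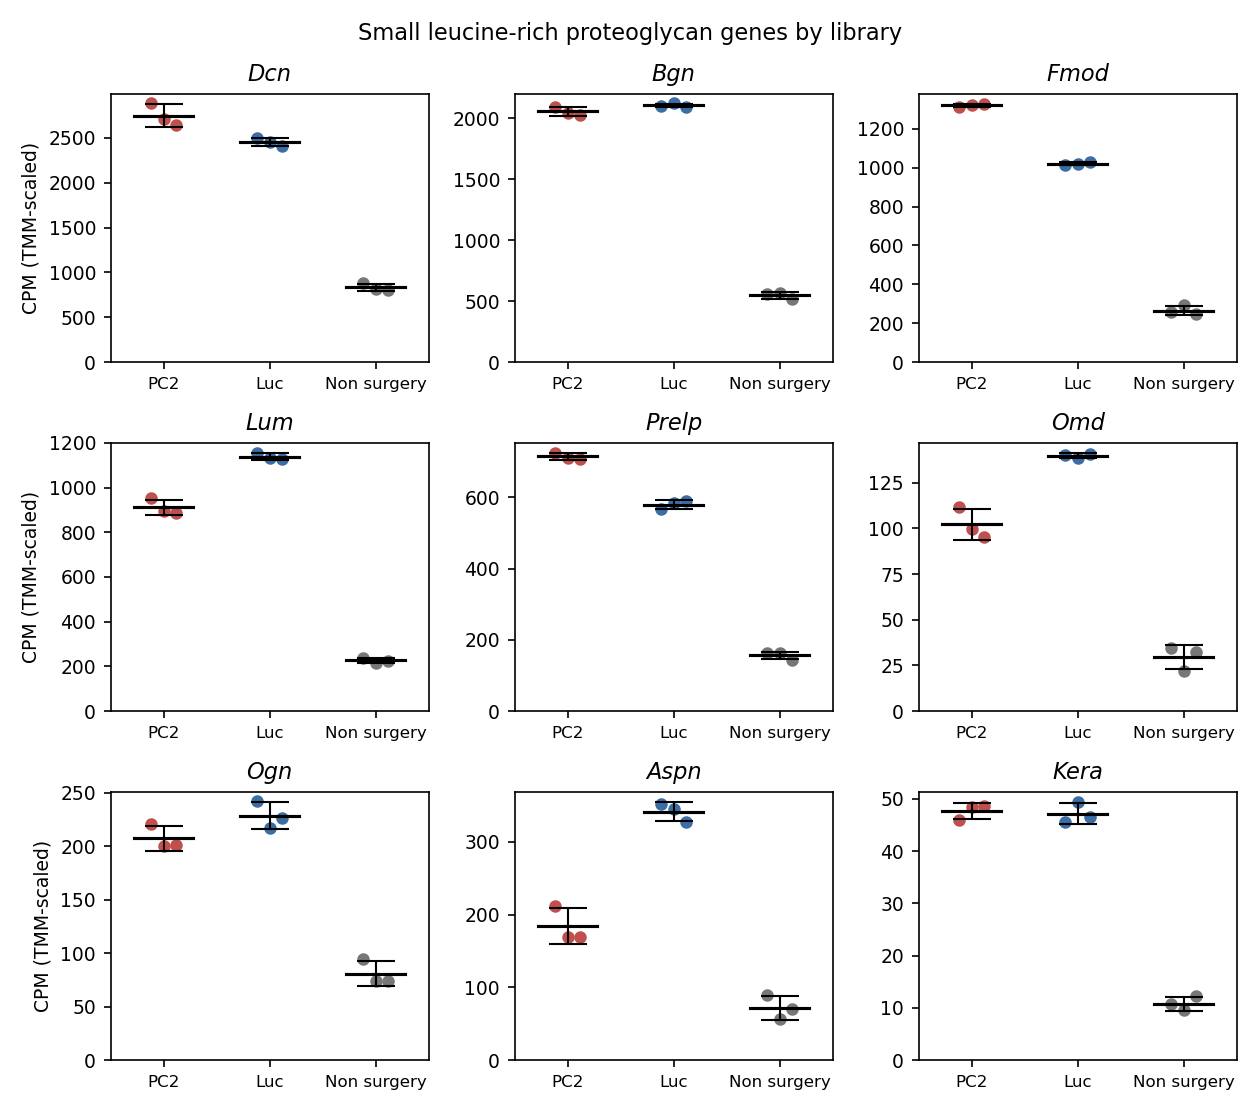
CPM of each family gene in the 9 libraries, by group. Points are libraries, the long bar is the mean and the whiskers are the SD over 3 libraries of 1 pool; for every gene the Non surgery libraries lie lowest, and PC2 and Luc libraries are apart in different directions for Fmod and Aspn.

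Decorin and biglycan, close relatives that carry chondroitin or dermatan sulfate chains, were the most abundant in CPM. Dcn had 2891, 2712 and 2649 CPM in PC2 libraries, 2495, 2458 and 2408 CPM in Luc libraries and 881, 815 and 808 CPM in Non surgery libraries. No library of one group lay within the range of another. Dcn, whose protein binds the surface of collagen fibrils and TGF-beta, was 3.30-fold higher in PC2 and 2.94-fold higher in Luc libraries than in Non surgery libraries (adjusted p = 2.98e-16 and 8.55e-16 in edgeR's test). Bgn had 2094, 2045 and 2028 CPM in PC2 libraries, 2097, 2122 and 2095 CPM in Luc libraries and 563, 568 and 516 CPM in Non surgery libraries. Bgn, known for its part in bone mass, was 3.74-fold and 3.83-fold higher in PC2 and in Luc libraries (adjusted p = 3.08e-17 and 2.22e-17 in edgeR's test). The PC2 libraries of Bgn all lay just below the Luc libraries. Aspn encodes asporin, which lacks a sulfated sugar chain, carries a run of aspartate and restrains TGF-beta signalling, and whose human gene has been linked to osteoarthritis. Aspn had 212, 169.8 and 169.7 CPM in PC2 libraries, 352, 345 and 327 CPM in Luc libraries and 89.5, 56.7 and 69.6 CPM in Non surgery libraries. The 3 groups did not overlap, with PC2 libraries in the middle. Aspn was 2.56-fold higher in PC2 and 4.75-fold higher in Luc libraries, each against Non surgery (adjusted p = 2.71e-08 and 4.17e-11 in edgeR's test). Its Non surgery repeats spread more widely than those of Dcn, with a coefficient of variation of 23.0% against 4.82%.

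Fibromodulin and lumican are keratan sulfate proteoglycans that share a binding site on collagen I. Fmod had 1313, 1321 and 1326 CPM in PC2 libraries, 1016, 1017 and 1029 CPM in Luc libraries and 258, 291 and 246 CPM in Non surgery libraries. The 3 groups did not overlap, with PC2 libraries the highest. Fmod was 4.98-fold higher in PC2 and 3.85-fold higher in Luc libraries, each against Non surgery (adjusted p = 1.84e-16 and 1.13e-15 in edgeR's test). Lum had 951, 896 and 885 CPM in PC2 libraries, 1154, 1132 and 1125 CPM in Luc libraries and 239, 216 and 225 CPM in Non surgery libraries. For Lum the order of the operated groups was the other way round, with Luc libraries the highest. Lum was 4.02-fold higher in PC2 and 5.01-fold higher in Luc libraries, each against Non surgery (adjusted p = 1.25e-16 and 2.25e-17 in edgeR's test). Prelp encodes a protein that links basement membranes and cartilage collagen through a heparin-binding end. Prelp had 725, 711 and 708 CPM in PC2 libraries, 567, 583 and 589 CPM in Luc libraries and 163, 162 and 145 CPM in Non surgery libraries. Its groups were ordered as those of Fmod. Prelp was 4.56-fold higher in PC2 and 3.70-fold higher in Luc libraries, each against Non surgery (adjusted p = 1.29e-16 and 5.69e-16 in edgeR's test).

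Osteomodulin, the product of Omd, is a keratan sulfate protein of mineralised matrix that binds hydroxyapatite. Omd had 112, 99.7 and 95.4 CPM in PC2 libraries, 140.4, 138 and 141 CPM in Luc libraries and 34.4, 21.9 and 32.3 CPM in Non surgery libraries. The 3 groups did not overlap, with Luc libraries the highest, and Non surgery replicate 2 lay below the other Non surgery libraries. Omd was 3.47-fold higher in PC2 and 4.74-fold higher in Luc libraries, each against Non surgery (adjusted p = 2.31e-10 and 1.15e-11 in edgeR's test). Kera encodes keratocan, best known from the cornea and also made in tendon and other connective tissue. Kera had 46.0, 48.5 and 48.6 CPM in PC2 libraries, 45.6, 49.4 and 46.5 CPM in Luc libraries and 10.7, 9.55 and 12.3 CPM in Non surgery libraries. It was the least abundant member, and PC2 and Luc libraries overlapped. Kera was 4.41-fold higher in PC2 and 4.36-fold higher in Luc libraries, each against Non surgery (adjusted p = 1.26e-13 and 1.42e-13 in edgeR's test). Krt12, the keratin that defines corneal epithelium, had 0 counts in 7 of the 9 libraries and 1 count in Luc replicates 1 and 3, with 54.4% of its exon bases shared with another annotated gene. Aldh3a1, the other corneal marker, had 4.72, 4.62 and 5.09 CPM in PC2, 4.42, 5.87 and 5.01 CPM in Luc and 5.52, 5.98 and 5.05 CPM in Non surgery libraries, overlapping between groups. Ogn encodes osteoglycin, also called mimecan, found in bone, cornea and muscle. Ogn had 221, 200.4 and 201 CPM in PC2 libraries, 243, 218 and 226 CPM in Luc libraries and 94.5, 73.7 and 74.4 CPM in Non surgery libraries. The PC2 and Luc libraries overlapped. Ogn was 2.57-fold higher in PC2 and 2.83-fold higher in Luc libraries, each against Non surgery (adjusted p = 9e-11 and 2.45e-11 in edgeR's test).

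Markers of many cell types differed along with the family. Over all genes tested, 31.1% rose and 27.7% fell in Luc, and 31.5% rose and 31.2% fell in PC2, each against Non surgery libraries. Between Luc and Non surgery libraries, 7 of 7 fibroblast, 4 of 4 tenocyte, 7 of 7 chondrocyte and 7 of 7 osteoblast and osteocyte markers rose, and 12 of 12 skeletal muscle markers fell, with median log2 fold changes of 1.89, 1.63, 1.99, 1.55 and -1.20. In PC2 against Non surgery libraries the same lists had 1.62, 1.49, 2.84, 1.81 and -1.08. Summed, the fibroblast markers had 26950.0 to 27211 CPM in PC2, 21907 to 22610.0 in Luc and 5859.6 to 6490.2 in Non surgery libraries, and the tenocyte markers 579 to 583, 661 to 665 and 279 to 315 CPM in the same order. The osteoblast and osteocyte markers summed to 1982 to 2012 CPM in PC2, 1950.2 to 1996 in Luc and 626 to 656 in Non surgery libraries. In Luc against Non surgery, 6 of 6 erythroid and 7 of 7 neutrophil markers fell and 4 of 4 endothelial markers rose. Of 5 synovial lining fibroblast markers 3 rose and 2 fell, Vcam1 (-1.42) and Clic5 (-0.95). Between PC2 and Non surgery libraries, 6 of 6 erythroid and 6 of 7 neutrophil markers fell, 2 of 4 endothelial markers rose and 1 fell, and 3 of 5 synovial lining markers rose and 1 fell. Of 5 adipocyte markers 5 rose in PC2, and 2 rose and 1 fell in Luc, each against Non surgery. Of 6 macrophage markers 3 rose and 2 fell in PC2, and 3 rose and 1 fell in Luc. Mitochondrial genes took 5.57% to 5.80% of counts in PC2, 5.0% to 5.80% in Luc and 9.05% to 10.9% in Non surgery libraries. The part of these shifts in the rise of the family was not tested.

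The viruses were then compared in operated joints. The family divided: Fmod, Prelp and Dcn rose in PC2 against Luc libraries, Aspn, Omd and Lum fell, and Bgn, Ogn and Kera did not pass the test. Aspn moved farthest, at 1.86-fold lower. No member reached 2-fold, where 1.30% of all genes rose and 2% fell by as much. Of the 9 genes 3 rose and 3 fell, where 16.1% of all genes tested rose and 18.6% fell. The median log2 fold change was -0.034, beside 0.0080 over all genes. In sum the 9 genes had 8293 ± 239.7 CPM in PC2 and 8053 ± 61.8 CPM in Luc libraries (SD, n = 3 each). The lowest PC2 library, at 8111 CPM, and the highest Luc library, at 8109.6 CPM, were next to each other.

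**Figure D2:**
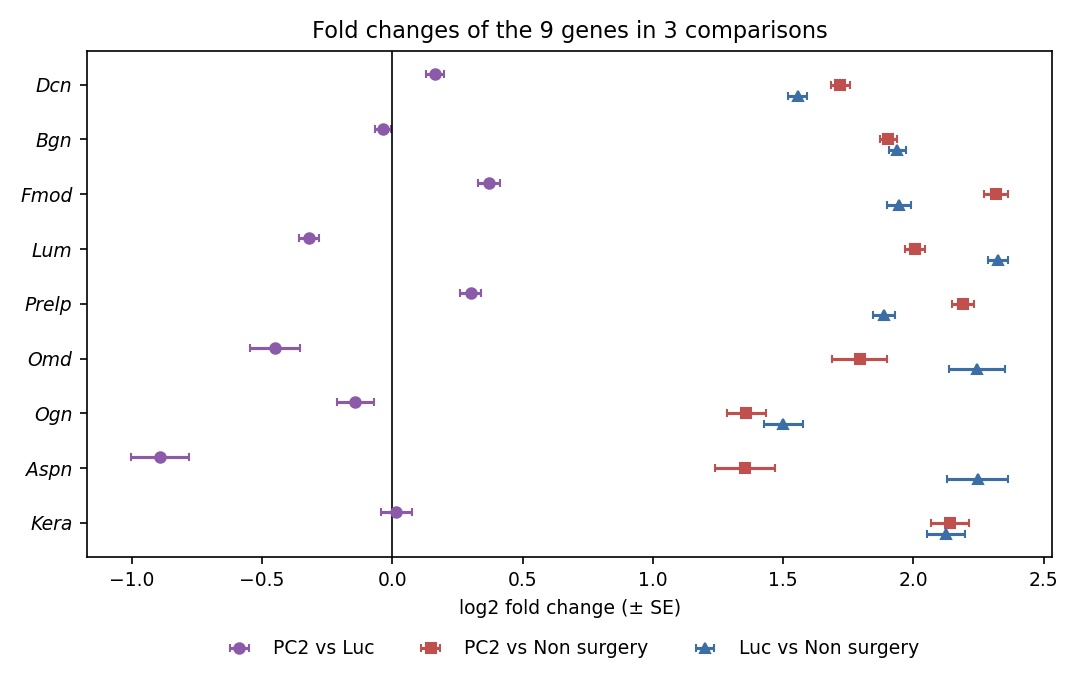
Log2 fold change of each family gene with its standard error in 3 comparisons. The changes against Non surgery lie between 1.35 and 2.33, and those of PC2 against Luc between -0.89 and 0.37, on both sides of 0.

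Of the 3 genes that rose, Fmod averaged 1320.1 ± 6.47 CPM in PC2 and 1021 ± 7.29 CPM in Luc libraries (SD, n = 3 each), which is 0.37 ± 0.044 on the log2 scale (SE; adjusted p = 7.09e-06, edgeR's quasi-likelihood test with Benjamini-Hochberg adjustment). Prelp averaged 715 ± 8.88 CPM in PC2 and 579.8 ± 11.4 CPM in Luc libraries, a change of 0.30 ± 0.040 (adjusted p = 2.43e-05, edgeR). Dcn changed less, by 0.16 ± 0.035 (adjusted p = 0.0016, edgeR). For all 3, every PC2 library lay above every Luc library, as for 23.3% of genes tested. Aspn fell to 184 ± 24.5 CPM in PC2, against 341 ± 12.7 CPM in Luc libraries, a log2 fold change of -0.89 ± 0.11 (adjusted p = 1.15e-05, edgeR). Omd changed by -0.45 ± 0.10 (adjusted p = 0.00168, edgeR) and Lum by -0.32 ± 0.037 (adjusted p = 5.42e-06, edgeR). In these 3 genes every PC2 library lay below every Luc library, as in 24.7% of genes tested. Of the 3 PC2 libraries, replicate 1 was the highest for 7 of the 9 genes, all but Fmod and Kera. Leaving it out took Aspn past 2-fold, to a log2 fold change of -1.01 (adjusted p = 8.92e-06 in edgeR's test).

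Bgn differed by -0.034 ± 0.031 on the log2 scale (SE; adjusted p = 0.431, edgeR), although its PC2 libraries did not overlap the Luc libraries. Kera had 0.015 ± 0.060 (adjusted p = 0.87, edgeR). Ogn had -0.14 ± 0.072 (adjusted p = 0.145, edgeR), with 221, 200.4 and 201 CPM in PC2 and 243, 218 and 226 CPM in Luc libraries, and it fell in 3 alternative fits. These values do not show that the 3 genes were alike in the 2 groups. Cell type markers are set beside all genes tested, of which 16.1% rose and 18.6% fell in PC2 against Luc libraries. Chondrocyte markers moved with this comparison: 7 of 7 rose in PC2 against Luc libraries, with a median log2 fold change of 0.78. Of 7 fibroblast markers 4 rose and 3 fell, of 4 tenocyte markers 0 rose and 2 fell, and of 12 skeletal muscle markers 9 rose and 1 fell. Of 7 osteoblast and osteocyte markers 4 rose and 2 fell, Dmp1 (-0.73) and Phex (-0.49). All 4 endothelial markers fell, and 6 of 7 neutrophil markers rose. Of 6 erythroid markers 2 fell, of 6 macrophage markers 1 rose and 3 fell, and of 5 synovial lining markers 3 rose and 1 fell. All 5 adipocyte markers rose, and they summed to 204 to 208 CPM in PC2 and 96.8 to 107 CPM in Luc libraries. Their part in the changes of the family was not tested.

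Levels were also set against each other per kilobase of exon (RPKM, from the TMM-scaled CPM), since longer transcripts collect more reads. The length is that of all annotated exons of a gene merged over its transcripts, such as 5838 bases for Dcn, 6099 for Bgn and 2448 for Lum. Transcripts in use can be shorter, so the order of the genes rests on this choice of length. The change of any gene between groups does not. In PC2 libraries Dcn was highest at 471 ± 21.6 RPKM (SD, n = 3), followed by Fmod (399 ± 1.96), Lum (372 ± 14.5), Bgn (337 ± 5.60), Prelp (198 ± 2.46), Ogn (80.9 ± 4.45), Aspn (78.1 ± 10.4), Omd (45.5 ± 3.74) and Kera (20.9 ± 0.644). In Luc libraries Lum led at 464 ± 6.22 RPKM, followed by Dcn (420.2 ± 7.47), Bgn (345 ± 2.45), Fmod (309 ± 2.20), Prelp (160.4 ± 3.15), Aspn (145 ± 5.41), Ogn (89.2 ± 4.97), Omd (62.2 ± 0.545) and Kera (20.7 ± 0.872). In Non surgery libraries Dcn led at 143 ± 6.89 RPKM, followed by Lum (92.6 ± 4.80), Bgn (90.0 ± 4.63), Fmod (80.2 ± 7.15), Prelp (43.3 ± 2.91), Ogn (31.5 ± 4.61), Aspn (30.6 ± 7.02), Omd (13.1 ± 2.97) and Kera (4.75 ± 0.597). Neighbours in these orders overlapped between libraries for Ogn and Aspn in PC2, for Lum and Bgn, Bgn and Fmod, and Ogn and Aspn in Non surgery, and for no pair in Luc libraries. Fmod stood above Lum and Bgn in PC2 libraries and below both in Luc libraries. In CPM Fmod also stood above Lum in PC2 and below it in Luc libraries. By that measure Fmod stood below Bgn in both, and Dcn stood above Lum in all groups.

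The make-up of the family, as the share of each gene in the summed length-scaled counts of the 9 genes, does not depend on how the libraries are scaled to each other. It does depend on the merged exon lengths. Lum made up 18.6% ± 0.167 in PC2, 23.0% ± 0.131 in Luc and 17.5% ± 0.576 in Non surgery libraries (SD, n = 3 each), with no overlap between groups. Dcn made up 23.5% ± 0.380 in PC2, 20.8% ± 0.202 in Luc and 27.0% ± 0.224 in Non surgery libraries. The Dcn share was thus lowest and the Lum share highest in Luc libraries. Fmod made up 19.95% ± 0.681 in PC2 libraries, above all Luc (15.3% ± 0.229) and Non surgery libraries (15.2% ± 1.55). Aspn made up 3.89% ± 0.398 in PC2 libraries, below all Luc (7.19% ± 0.213) and Non surgery libraries (5.75% ± 1.09). The share of Bgn overlapped between all 3 groups, at 16.8% ± 0.222 in PC2, 17.1% ± 0.186 in Luc and 17.0% ± 0.747 in Non surgery libraries. Shares of one whole move against each other, so a higher share of one gene lowers those of the others.

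**Figure D3:**
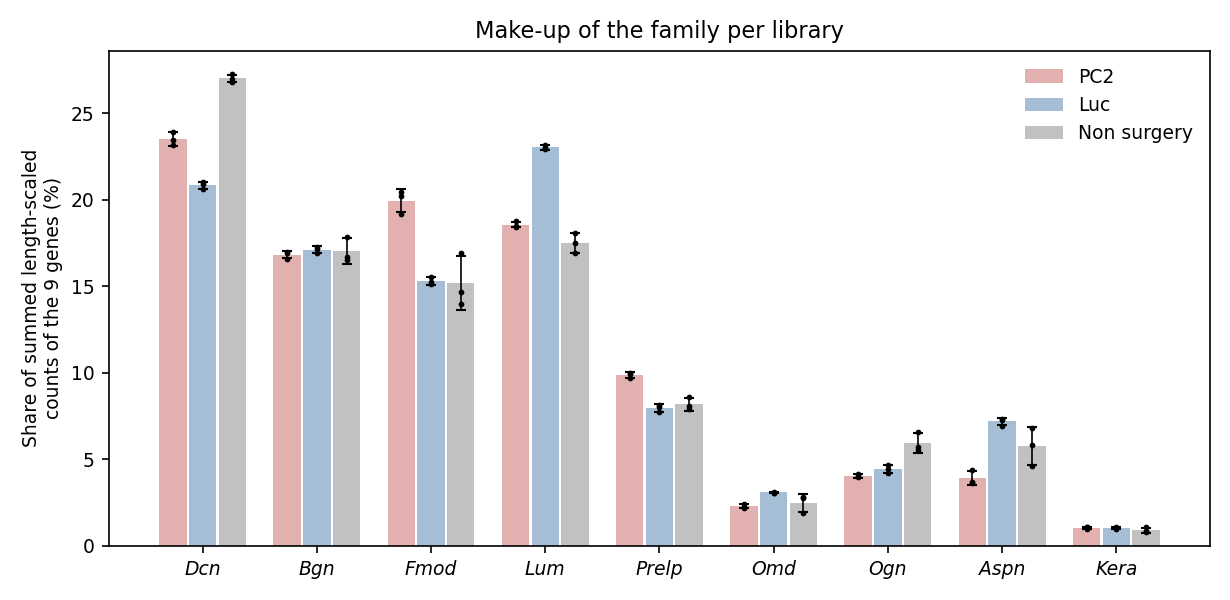
Share of each gene in the summed length-scaled counts of the 9 family genes. The scale is the merged exon length, on which the heights of different genes depend. Bars are group means, dots the 3 libraries and whiskers the SD; in Luc libraries Lum has the tallest bar, and in PC2 and Non surgery libraries Dcn has.

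Other genes of the family or its near relatives were followed as a list of 9, of which 8 could be tested; Optc, an eye protein, had 3 to 11 counts per library and was not tested. In PC2 against Luc libraries 4 rose, 0 fell and 4 did not pass, with a median log2 fold change of 0.24. Those that rose were Chadl (0.97), Epyc (0.58), Chad (0.41) and Podn (0.38). For this list and those below, 16.1% of all genes tested rose and 18.6% fell in PC2 against Luc libraries. Against Non surgery, 31.1% rose and 27.7% fell in Luc libraries, and 31.5% rose and 31.2% fell in PC2 libraries. Chad encodes chondroadherin, a cartilage protein that binds integrin, Chadl its relative, and Epyc epiphycan, a proteoglycan of growth cartilage. Chad was the most abundant, with 1486, 1472 and 1440.4 CPM in PC2, 1098, 1133 and 1076 CPM in Luc and 323, 346 and 307 CPM in Non surgery libraries. Podnl1 (0.11), Nyx (-0.092), Tsku (-0.017) and Ecm2 (-0.0036) did not pass. Set against Non surgery, in Luc libraries 7 rose, 0 fell and 1 did not pass, led by Epyc at a log2 fold change of 3.22, with 122, 101 and 92 counts in Luc against 4, 10 and 16 in Non surgery libraries, and by Ecm2 at 1.98. In PC2 against Non surgery libraries 7 rose, 0 fell and 1 did not pass, with Epyc at 3.80 and Chadl at 2.47. Of the exon bases of Epyc, 40.6% are shared with Gm10754 on the other strand, so its counts share this limit with Prelp.

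Collagens are the partners on which these proteins sit. In PC2 against Luc libraries, of 14 collagen chains of fibrils and their surfaces 5 rose, 8 fell and 1 did not pass, with a median log2 fold change of -0.19. The rises were led by the cartilage chains Col11a2 (0.92) and Col2a1 (0.78), with Col11a1 at 0.58. Col1a1 (0.32) and Col1a2 (0.24), the most abundant chains of the list, rose as well. The falls were led by Col12a1 (-0.65), a fibril-associated collagen. Summed, the list had 42056 to 42478 CPM in PC2 and 36637 to 37597 CPM in Luc libraries. Of 14 chains 14 rose in Luc against Non surgery libraries, all at least 2-fold, where 9.43% of all genes tested rose by as much. Col2a1 stood at 3.37, Col3a1 at 2.96, Col6a1 at 2.54 and Col14a1 at 2.43. The list also had 14 of 14 higher in PC2 against Non surgery libraries, with Col2a1 at 4.15, Col3a1 at 2.79, Col11a1 at 2.73 and Col11a2 at 2.66. The medians of this list were 2.29 for Luc and 2.22 for PC2 against Non surgery.

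Most members of the family carry sugar chains that other enzymes build. Of 22 genes that make the linkage region and the chondroitin and dermatan sulfate chains, in PC2 against Luc libraries 4 rose, 4 fell and 14 did not pass. Of all genes tested 16.1% rose and 18.6% fell, shares close to those of the list in this fit. With only the 6 libraries compared more of the listed genes fell, and 3464 of all 17077 genes tested did. Listed genes that passed included B4galt7 (0.37) and B3gat3 (0.26), which add linkage sugars, and Chst12 (0.21), a chondroitin sulfotransferase. Dsel (-0.37), a relative of the dermatan sulfate epimerase, passed as well. In Luc against Non surgery libraries 18 rose, 1 fell and 3 did not pass, with a median log2 fold change of 0.71, led by Dsel (2.05), the chain polymerase genes Chsy3 (1.78) and Chpf (1.55) and the sulfotransferase Chst3 (1.40). In PC2 against Non surgery libraries 18 rose, 2 fell and 2 did not pass, with Chpf at 1.70, Dsel at 1.68, Chsy3 at 1.49 and Chst3 at 1.44. Of 7 keratan sulfate genes, in PC2 against Luc libraries 3 rose, 0 fell and 4 did not pass. The sulfotransferases Chst5 (0.86) and Chst2 (0.39) and the chain-extending B3gnt7 (0.54, adjusted p = 0.0492 in edgeR's test) rose. B3gnt7 had few counts, 56, 75 and 69 in PC2 and 51, 48 and 36 in Luc libraries. Of the same 7, in Luc against Non surgery libraries 3 rose, 2 fell and 2 did not pass. Chst5 (2.95), Chst1 (1.99) and Chst2 (1.34) rose, and B3gnt7 (-1.28) and B4galt1 (-0.16) fell. The Chst5 values against Non surgery rest on few counts, 11, 5 and 9 in Non surgery libraries beside 73, 75 and 70 in Luc libraries. In PC2 against Non surgery libraries 3 rose, 2 fell and 2 did not pass, with Chst5 at 3.81 and B3gnt7 at -0.75. Scaling by library totals alone left 1 keratan sulfate gene that fell in either comparison with Non surgery.

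In PC2 against Luc libraries 16.1% of all genes tested rose and 18.6% fell. Of 18 growth factors and receptors that these proteins are known to bind, 2 rose, 6 fell and 10 did not pass in this comparison. The largest falls were in Cd14 (-0.75), a co-receptor of Toll-like receptors, Kdr (-0.49), a VEGF receptor, the hyaluronan receptor Cd44 (-0.42) and Ccn4 (-0.27). The 2 that rose were Bmp6 (0.22) and P2rx4 (0.21). Among these 18, in Luc against Non surgery libraries 14 rose, 1 fell and 3 did not pass, led by Egfr (1.51), a receptor that decorin binds, Tgfb3 (1.27), Ccn4 (1.21) and Tgfb2 (0.95). In PC2 against Non surgery libraries 11 rose, 3 fell and 4 did not pass. The rises were led by Egfr at 1.59, Tgfb3 at 1.26, Ccn4 at 0.94 and Bmp2 at 0.86. Those that fell were Cd14 (-0.28), Igf1r (-0.21) and Met (-0.20), while Cd14 rose in Luc against Non surgery libraries (0.47). Of 10 proteases known to cleave members of the family or their propeptides, in PC2 against Luc libraries 2 rose, 7 fell and 1 did not pass. The aggrecanase Adamts4 (-0.61) and the metalloproteinases Mmp14 (-0.43), Mmp2 (-0.40) and Mmp3 (-0.37) fell most. Bmp1 (0.20), which removes the propeptide of biglycan, and Adamts5 (0.14) rose. Leaving out PC2 replicate 1, PC2 replicate 3 or Luc replicate 1 left 1 protease that rose. All 10 rose in Luc against Non surgery libraries, led by Mmp3 (4.22), Adamts4 (3.28), Mmp13 (2.29) and Mmp14 (2.24). All 10 also rose in PC2 against Non surgery libraries, with Mmp3 at 3.86, Adamts4 at 2.67, Mmp13 at 1.95 and Mmp14 at 1.81.

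**Figure D4:**
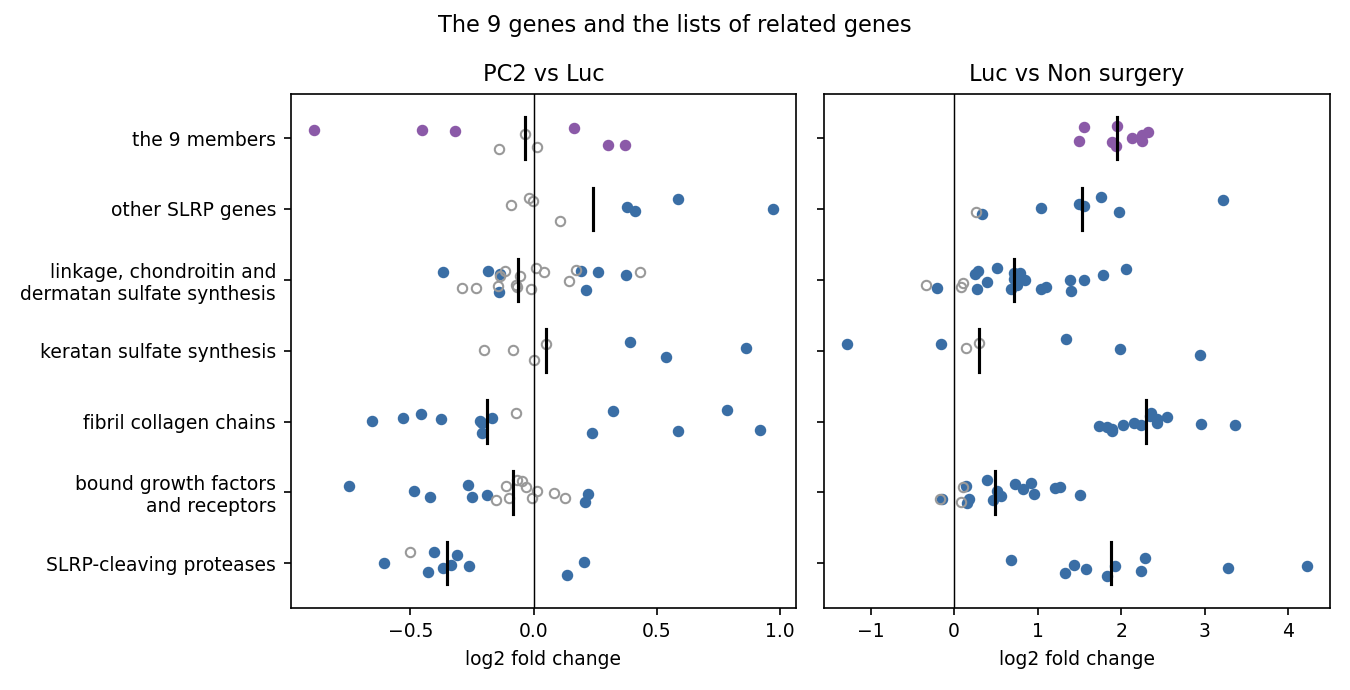
Log2 fold changes of the 9 family genes and of 6 lists of related genes, for PC2 against Luc and for Luc against Non surgery. Filled points passed an adjusted p of 0.05, open points did not, and the black bar is the list's median, which for the 9 genes is -0.034 in the left panel and 1.94 in the right one.

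Genes that lie together in the genome did not move together in PC2 against Luc libraries throughout. On chromosome 1 both Prelp (0.30) and Fmod (0.37) rose, while the nearest tested genes outside them, Atp2b4 (-0.29), a calcium pump, and Btg2 (-0.20), a growth-restraining gene, fell. On chromosome 10 Dcn (0.16) rose, Lum (-0.32) fell and Kera (0.015) did not pass; the next gene after Kera, Epyc (0.58), rose, and Btg1 (-0.25), the nearest tested gene before Dcn, fell. On chromosome 13 Aspn (-0.89) and Omd (-0.45) fell and Ogn (-0.14) did not pass. Ecm2 (-0.0036), which lies before Aspn and encodes a related matrix protein, did not pass (adjusted p = 0.96 in edgeR's test), nor did Cenpp (-0.36), a centromere gene that spans the run, and Nol8 (-0.21) after Ogn fell. Beside Bgn, neither Haus7 (0.047) nor Atp2b3 (-0.43) passed. In Luc against Non surgery libraries all 9 family genes rose. Ecm2 and Epyc rose in Luc libraries by 1.98 and 3.22, and the other neighbours had values between -1.18 for Atp2b3 and 0.84 for Btg1.

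**Figure D5:**
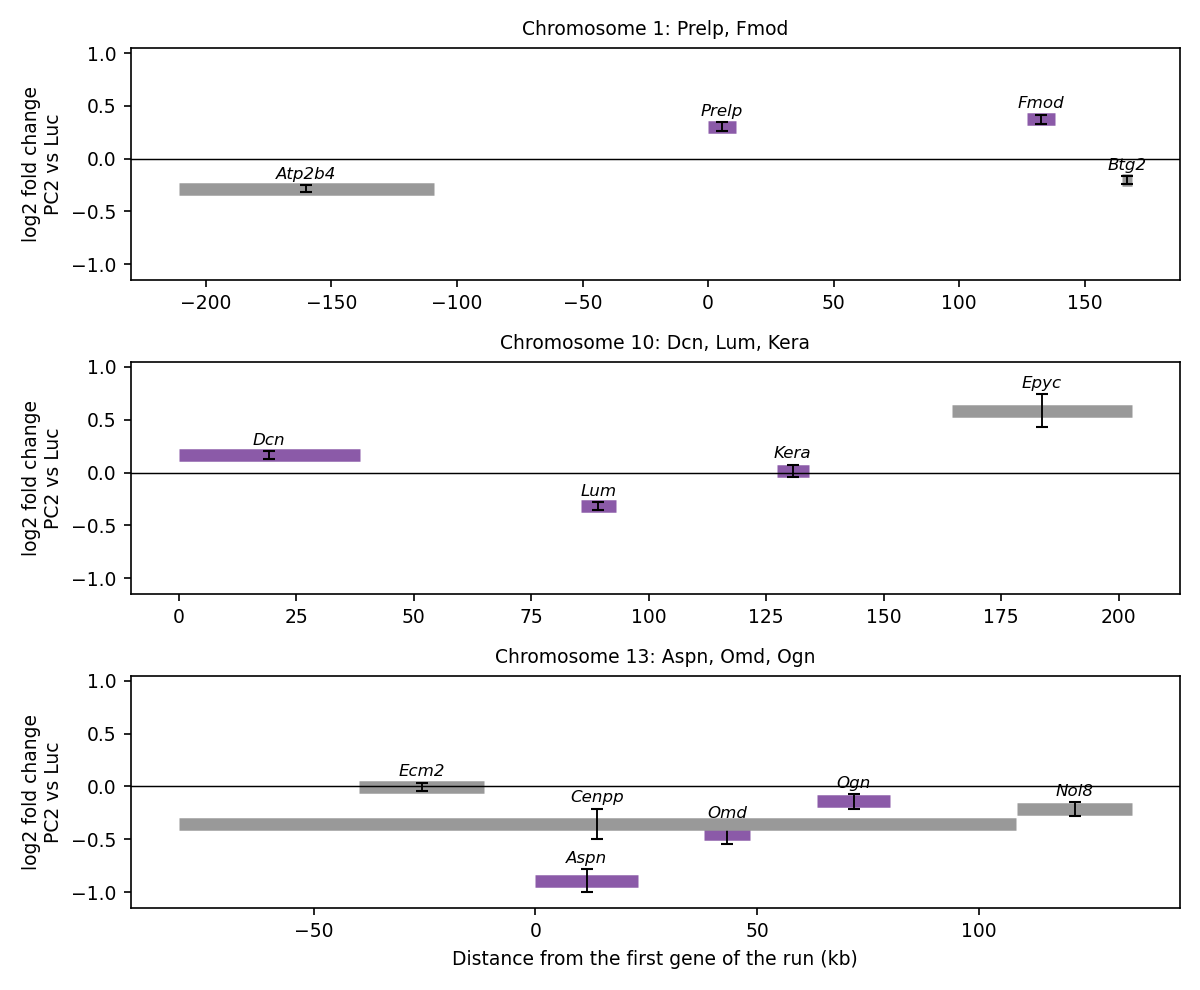
Log2 fold change of PC2 against Luc for the genes of the 3 runs, drawn to scale as distance in kb from the start of the run's first gene, with standard errors. Violet bars are family genes and grey bars the nearest tested genes outside the list; Btg1, farther away on chromosome 10, is not drawn. On chromosome 10, Dcn lies above 0 at 0.16 and Lum below it at -0.32.

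The genes whose log2 CPM followed each member most closely over the 9 libraries were found by the root mean square difference of the profiles, each centred on its own mean, among 11685 named genes with a mean of at least 5 CPM. The libraries are repeats of 3 pools, so this likeness rests on 3 group levels and is a description. These genes were picked for their likeness in the same libraries. Fold changes and levels close to those of a member, given below, therefore follow from the choice and are no separate result. Nearest to Fmod were Ntn1 (0.0407), Pcolce (0.0459) and Col1a1 (0.0497) log2 units away, and to Prelp Sned1 (0.0317), Col1a1 (0.0375) and Sparc (0.0448). Col1a1, the main chain of collagen I, and the collagen-processing Pcolce had log2 fold changes of 0.32 and 0.31 in PC2 against Luc libraries, close to those of Fmod and Prelp. Fmod and Prelp were 0.0702 apart, with 5 candidates nearer to Fmod than Prelp was. Nearest to Lum were Mmp13 (0.0459), Ssc5d (0.0668) and Pamr1 (0.0670), and to Omd Adamts12 (0.171), Dsel (0.173) and Col5a2 (0.180). Lum itself was 0.161 from Omd, nearer than any candidate. The collagenase Mmp13 had 956 CPM in PC2, 1206 CPM in Luc and 247 CPM in Non surgery libraries, beside 911, 1137 and 227 CPM for Lum. Nearest to Aspn were Edil3 (0.0997), Naaladl2 (0.160) and Sema3d (0.203). Edil3, which encodes an integrin-binding matrix protein, had a log2 fold change of -0.81 in PC2 against Luc libraries, beside -0.89 for Aspn. Dcn lay nearest to Sfrp4 (0.0530), Nupr1 (0.0567) and Stk38l (0.0658), Bgn to Ckb (0.0488), Scarf2 (0.0518) and Sertad4 (0.0541), Ogn to Fibin (0.0692), Lox (0.0767) and Tbx18 (0.0839) and Kera to Col24a1 (0.0615), Gem (0.0864) and Capn6 (0.0943). Lox, in the list of Ogn, encodes an enzyme that crosslinks collagen, and Sfrp4, in that of Dcn, a secreted Wnt antagonist.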

How the data were processed

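Per the labels' protocols, RNA was taken up in TRIzol and sequenced after library preparation with a NEBNext Ultra kit. The deposited values are raw read counts per Ensembl gene, 1 table per library, with 5 HTSeq summary lines that stayed out of totals and tests. HISAT2, HTSeq, DESeq2 and mm10 stand in the submitters' processing notes with no version. Which annotation, strand option and read filters were used is not given in the sources used here. Of all values in a library's table, summary lines included, the HTSeq line for reads in no counted feature held 7.29% to 9.25%. The HTSeq line for ambiguous reads held 5.72% to 6.65%.

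Symbols, coordinates and exon lengths came from GENCODE M21 (GRCm38), which held 53274 of the gene IDs. Counts were fitted for all 9 libraries with edgeR 4.0.16 in R 4.3.3 (quasi-likelihood test, TMM, filterByExpr with minimum count 10, a group factor), two-sided, with Benjamini-Hochberg adjustment over 17478 genes. Each standard error is the absolute log2 fold change divided by the root of its F statistic. The fit was tested on simulated data. Repeats of a pool differed by more than counting noise (chi-square per degree of freedom 3.94 to 8.68 over genes with at least 20 counts), so each was kept. Named genes are the 9 members, 9 relatives, up to 4 genes per list and comparison with the largest change, the nearest neighbours (members within 500 kb form a run) and 3 nearest profiles per member; other named genes were chosen after their values were seen. One listed symbol, Wisp1, was matched through its newer name Ccn4. The members and lists were chosen with earlier results of these data known. A comparison of protein sequences was not made here. A check of the gene the virus expresses is not reported here. Alternatives were other scalings, no filter, DESeq2 1.42.0, fewer libraries, a replicate block and each library left out.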

Additional observations from a re-analysis of the deposited data

How the results depend on the processing

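The counts of 9 members higher and 0 lower in Luc and in PC2 against Non surgery, and of 3 higher in PC2 against Luc, came out alike in all 7 other settings and with each library left out. In PC2 against Luc, 3 or 4 members fell. The additional one was Ogn, which fell without the low-count filter (-0.14, adjusted p = 0.00548 in edgeR's test), with only the 6 libraries compared (-0.14, adjusted p = 0.0165) and with a replicate block (-0.14, adjusted p = 0.0222); over all its settings its adjusted p ran from 0.00548 to 0.416. Without Luc replicate 1 the log2 fold change of Kera was -0.0071, on the other side of 0, within a range of -0.0071 to 0.052 over single libraries left out; the cause was not tested. Leaving out 1 library gave Aspn -1.01 to -0.83. The replicate numbers did not pair the libraries: deviations of same-numbered libraries correlated at -0.0274 to 0.0567, and the own number correlated best in 8 of 18 cases. Under the block 3 members rose and 4 fell in PC2 against Luc, and no other call of a member changed. Scaling by library totals alone moved the median of all genes to 0.19 in Luc against Non surgery and to 0.17 in PC2 against Non surgery, and the genes called at 2-fold or more to 2065 higher and 824 lower (with TMM 1648 higher and 1104 lower) and 2122 higher and 834 lower (with TMM 1718 higher and 1142 lower). Counts within the lists of related genes moved by over 1.5 times only where they held few genes: the sugar-chain genes that fell in PC2 against Luc numbered 7 with only the 6 libraries compared, and the 1 that fell in Luc against Non surgery became 2 without Luc replicate 2 or Non surgery replicate 3 and in 5 of the 7 other settings. The 1 growth factor or receptor gene that fell there became 2 without Non surgery replicate 1 or with median-of-ratios scaling, and with library totals alone neither list had a gene that fell. Each group is 1 pool, so no setting here speaks of variation between mice.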
